A study of Mus musculus with 8 samples.

Results

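Il10 and 9 genes that lie beside it on mouse chromosome 1 were followed in RNA of splenic B cells that had been sorted by whether they made IL-10. The 10 members were taken by symbol in the GENCODE M21 annotation, and all 10 were found among the 26589 genes of the deposited table. From low to high position they are Fcmr, Il24, Il20, Il19, Il10, Mapkapk2, Dyrk3, Eif2d, Rassf5 and Ikbke. They were chosen for their place on the chromosome, and the question was whether high Il10 goes with its neighbours.

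The B cells were purified from spleens of IL-10-eGFP Tiger mice, cultured with 3 µg/ml lipopolysaccharide for 48 h, and sorted into IL-10+ and IL-10- cells, with 4 bulk RNA-seq libraries in each group. Both groups carry the reporter allele and both received lipopolysaccharide, the outer-membrane glycolipid of Gram-negative bacteria, and neither is a control without stimulus or reporter. The treatment field of the labels says untreated while the protocols describe the stimulus, and the protocols were followed here. In this strain a sequence for green fluorescent protein sits in the untranslated end of the Il10 gene itself, so the sort reads the activity of the altered Il10 locus. The labels do not state the age, sex, number or zygosity of the mice. They number the libraries of a group from 1 to 4 and do not say whether a number is a mouse, a culture or a sort, so the p-values reflect library-to-library spread that may be technical.

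IL-10 is a cytokine that restrains inflammation, and B cells that secrete it are studied as regulatory B cells. It signals through a receptor of the Il10ra and Il10rb chains and the kinases Jak1 and Tyk2 to the transcription factor Stat3. Il19, Il20 and Il24 encode cytokines of the same family and sit in a cluster with Il10. The other neighbours belong to unrelated families. Fcmr encodes the Fc receptor for IgM on B cells, and Ikbke encodes IKK-epsilon, a kinase of the interferon and NF-κB pathways. Mapkapk2 encodes MK2, the kinase that p38 activates and that controls the stability of messengers with AU-rich elements. Dyrk3 encodes a kinase that dissolves condensates, Eif2d a translation initiation factor, and Rassf5 a Ras and Rap1 effector that acts in lymphocyte adhesion.

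The 10 genes span 414 kb of GRCm38, from 130865669 to 131279606 on chromosome 1, with 3 on the plus strand and 7 on the minus strand. Il10 (ENSMUSG00000016529) lies on the plus strand at 131019845 to 131024974 and its transcript has 5 exons. Its nearest listed neighbour is Mapkapk2 (131053700 to 131097826), 28.7 kb beyond its end. Il19 (130932656 to 130940115) starts 79.7 kb before the start of Il10, Il20 (130906985 to 130911451) 108.4 kb, Il24 (130882074 to 130887454) 132.4 kb. The start of Fcmr (130865669 to 130880791) is at -154.2 kb on the same scale. On the other side come Dyrk3 (131127455 to 131138340), Eif2d (131153181 to 131187658), Rassf5 (131176410 to 131245258) and Ikbke (131254343 to 131279606), whose start is 259.8 kb from that of Il10. Eif2d and Rassf5 overlap on opposite strands, Mapkapk2 holds 2 small annotated genes on its own strand, and Ikbke overlaps the antisense genes Gm28913 and Gm28914. No source used here states the strand setting of the authors' counting, so reads in the overlaps cannot be told apart.

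Promoter windows from RefSeq (GRCm38.p6), from 250 bases before to 50 after a start site, were matched for 8 of the 10 members, not for Il10 and Il24. The windows of Fcmr, Ikbke and Mapkapk2 are shown because these are the neighbours that were lower in IL-10+ cells in the fits described below. Capitals mark matches, on either strand, to 9 motifs. These were TGANTCA for AP-1, TGACGTCA for the cyclic AMP element, TTCNNNGAA for STAT factors, GGGCGG for the GC box, TATAAA for the core promoter box, CCAAT for the box of that name, GGAANNGAA for the composite element of ETS and IRF factors, GAAAGT for the PRDM1 core, and the κB consensus.
Fcmr, plus strand, chr1:130865527-130865826: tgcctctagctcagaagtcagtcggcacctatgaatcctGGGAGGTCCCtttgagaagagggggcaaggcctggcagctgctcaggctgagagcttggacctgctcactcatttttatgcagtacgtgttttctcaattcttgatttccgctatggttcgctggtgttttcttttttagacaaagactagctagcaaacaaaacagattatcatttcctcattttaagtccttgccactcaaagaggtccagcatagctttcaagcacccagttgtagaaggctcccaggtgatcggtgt
Ikbke, minus strand, chr1:131279514-131279813: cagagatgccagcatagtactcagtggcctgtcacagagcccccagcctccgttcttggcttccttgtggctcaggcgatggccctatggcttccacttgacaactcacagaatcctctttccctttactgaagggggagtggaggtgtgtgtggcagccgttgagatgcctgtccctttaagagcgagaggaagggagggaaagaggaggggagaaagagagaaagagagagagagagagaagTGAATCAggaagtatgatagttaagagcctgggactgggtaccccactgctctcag
Mapkapk2, minus strand, chr1:131097794-131098093: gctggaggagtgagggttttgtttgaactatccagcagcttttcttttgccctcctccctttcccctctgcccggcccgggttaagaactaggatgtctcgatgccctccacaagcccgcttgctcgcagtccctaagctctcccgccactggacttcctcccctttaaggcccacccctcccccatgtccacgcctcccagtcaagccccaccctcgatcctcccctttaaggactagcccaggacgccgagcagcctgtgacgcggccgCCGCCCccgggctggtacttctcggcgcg

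Each of the 3 windows held 1 of the 9 motifs, and it was a different one in each. Fcmr held a κB consensus from position -211 (counted from the start site), which 8.46% of the 32851 windows hold. Ikbke held an AP-1 motif from position -6, at 7.81% of windows, and Mapkapk2 a GC box from position 22, at 35.7% of windows. No motif was shared by the 3 windows. The share of windows with a match was 1.79% for the cyclic AMP element, 8.30% for STAT, 13.6% for the core promoter box, 37.4% for the CCAAT box, 8.24% for the composite element and 14.3% for the PRDM1 core. The number of CpG dinucleotides in the 300 bases was 5 in Fcmr, 4 in Ikbke, 5 in Rassf5, 4 in Il20 and 1 in Il19. It was 18 in Mapkapk2, 19 in Eif2d and 32 in Dyrk3, with a median of 7 over all windows. The Rassf5 window belongs to a start site inside the gene, 45.1 kb from the start used here for distances. The start sites of the other windows lay within 0.155 kb of theirs. A match describes the letters and does not show that a factor binds.

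The Il10 messenger is rich in the AU pentamer ATTTA, which tristetraprolin (Zfp36) binds and which the MK2 pathway acts through. Its untranslated 3′ end of 706 bases held 6 ATTTA, or 8.50 per kb, and 2.09% of 20690 genes had as many per kb. All 6 lie in the fifth exon, and 1 of them is shown here with the pentamer in capitals.
Il10, plus strand, chr1:131024481-131024510: taattttacagtATTTAttatttttaacct

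The family neighbours Il20 and Il24 held 5 and 4 ATTTA and Il19 held 1, while Mapkapk2 and Dyrk3 held 1 each, Rassf5 held 4 in 2115 bases, and Fcmr, Eif2d and Ikbke held none. Per kb this was 10.5 for Il24 and 11.6 for Il20, against a median of 1.12 over all genes.

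The deposited values are FPKM, reads scaled to gene length and library size. Library totals recovered from them lay between 27380396 and 29968283 reads. The B cell genes Cd79a and Cd79b, which encode the signalling chains of the B cell receptor, were abundant in each library, at no less than 451.9 and 279.2 FPKM. The B cell factor Pax5 was at 76.2 to 103.2 FPKM in IL-10+ and 138.7 to 179.9 FPKM in IL-10- libraries, and Ms4a1 at 83.3 to 91.9 and 127.8 to 139.4 FPKM. The 5 T cell markers summed to at most 0.178 FPKM in any library. One macrophage marker of 5, Cd68 (at most 10.1 FPKM), and one dendritic cell marker of 5, Flt3 (at most 14.7 FPKM), passed 1 FPKM in 4 libraries, while Csf1r, Itgam, Itgax and Siglech did not. The 5 plasmablast markers (Prdm1, Xbp1, Irf4, Jchain and Sdc1) were all higher in IL-10+ cells, with sums of 435.1 to 484.0 against 105.6 to 135.8 FPKM. The part of this shift in the results that follow was not tested. In bulk RNA, fewer cells of a type and less RNA per cell cannot be told apart. Results are also given for replicates 1 and 2 alone and for replicates 3 and 4 alone.

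Il10 is the gene the cells were sorted on, and its values describe the sort. It stood at 32.0, 44.4, 35.2 and 35.8 FPKM in IL-10+ replicates 1 to 4 and at 1.28, 2.86, 3.77 and 4.76 FPKM in the IL-10- libraries. The groups did not overlap. The log2 change of FPKM + 1 was 3.25 (95% interval 2.66 to 3.85), which ranked first among tested genes other than immunoglobulin segments and sixth with them. Within the replicate numbers the ratio of IL-10+ to IL-10- was 25.0, 15.5, 9.35 and 7.51 in numbers 1 to 4. This spread came mostly from the IL-10- libraries, whose highest value was 4.76 and lowest 1.28 FPKM, while the IL-10+ values lay within 32.0 to 44.4 FPKM. By recovered reads Il10 had 47 to 187 in IL-10- and 1148 to 1628 in IL-10+ libraries.

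**Figure D1:**
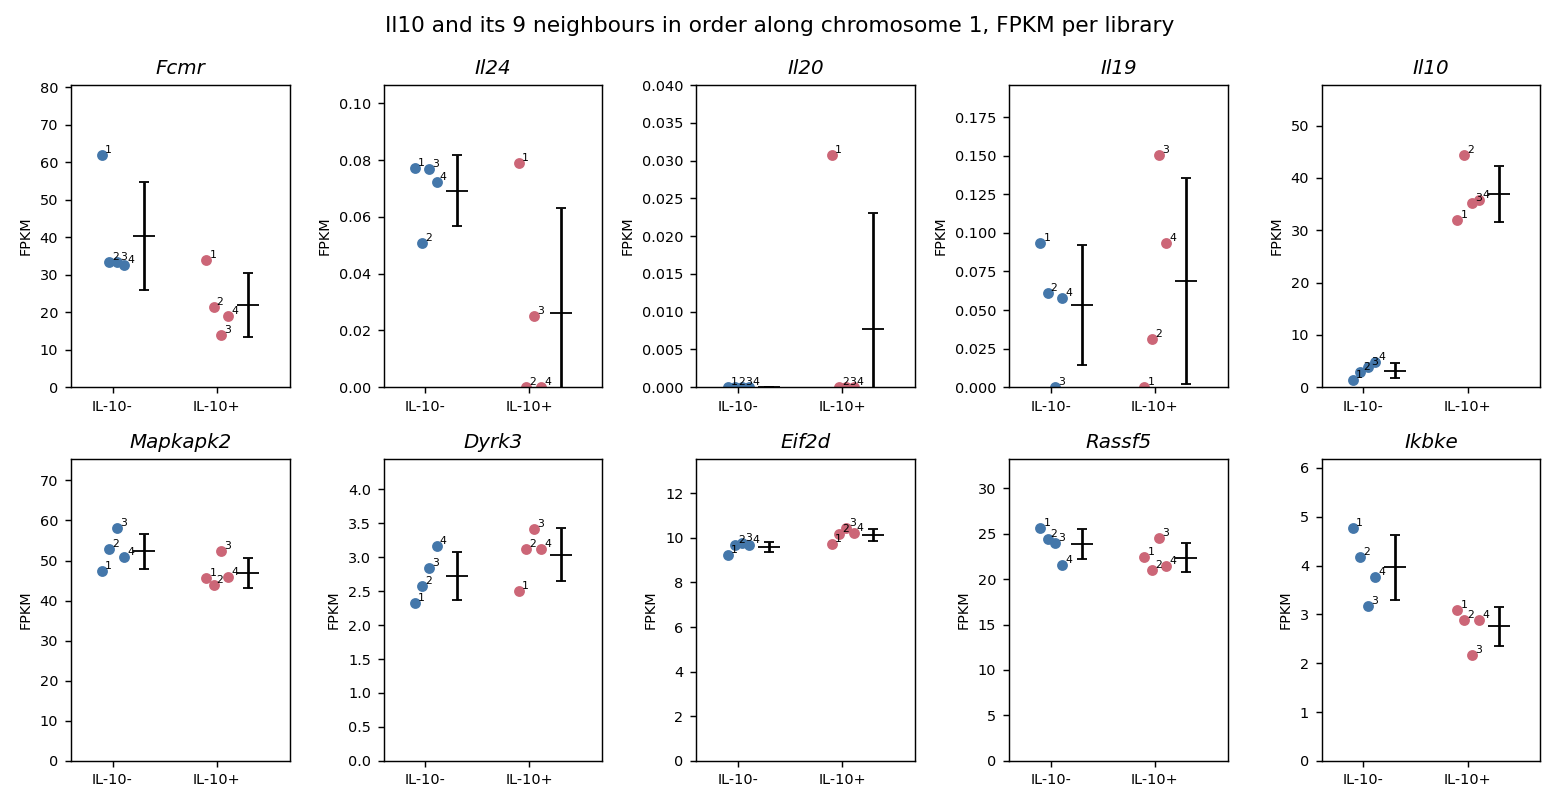
FPKM (y axis, from 0, a scale of its own in each panel) of the 10 members in IL-10- (blue) and IL-10+ (red) libraries. Points are libraries with their replicate number and black bars are the mean and SD of 4 libraries. Il10 separates fully, Ikbke separates narrowly, and the other panels overlap.

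None of the other cytokine genes of the cluster reached a level at which a change could be read. Il20 had 1 read in all 8 libraries together, in IL-10+ replicate 1. Il19 had 3, 2, 0 and 2 reads in the IL-10- and 0, 1, 5 and 3 reads in the IL-10+ replicates 1 to 4. Il24 had 3, 2, 3 and 3 reads in the IL-10- and 3, 0, 1 and 0 reads in the IL-10+ libraries. Both genes stayed at 0.151 FPKM or less everywhere, and 3 reads are worth 0.0871 to 0.0954 FPKM in Il19 and 0.0722 to 0.0791 FPKM in Il24. Their groups overlapped. An exact two-sided permutation test of the group means gave p = 0.143 for Il24 and p = 0.714 for Il19, where 0.0286 is the smallest p that 4 against 4 libraries allow. A library at 0 reads of Il20 allows a level of up to 0.0844 to 0.0924 FPKM (3 reads, counting error only). In the libraries with high Il10, none of the 3 had more than 5 reads.

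Of the 9 neighbours, 6 had at least 1 FPKM in 4 libraries and entered the fit with limma. None was called higher in IL-10+ cells and 1, Ikbke, was called lower at a Benjamini-Hochberg adjusted p under 0.05. Across all 11329 tested genes 10.6% were called higher and 9.18% lower. The 6 log2 changes ran from -0.86 to 0.12, with 2 above and 4 below 0 and a median of -0.12, against a median of -0.06 over all tested genes. The highest upper end of the 95% intervals of the 6 was 0.34, far under the change of Il10. The replicate numbers pair the libraries by the check described with the processing, and with the number as a block 3 of the 6 were called lower (Fcmr, Ikbke and Mapkapk2) and none higher. That fit called 20.4% of all tested genes higher and 33.3% lower. Whether the share of the 6 neighbours differs from that of all genes was not tested.

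**Figure D2:**
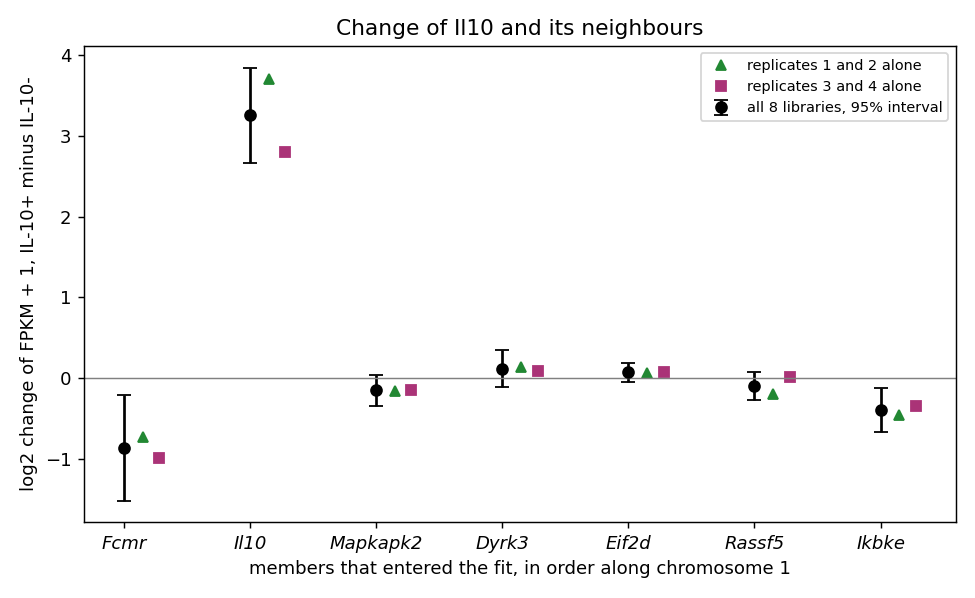
Log2 change of FPKM + 1, IL-10+ minus IL-10- (y axis), of the 7 members that entered the fit, in chromosome order. Black points and bars are all 8 libraries with the 95% interval, and the triangles and squares are replicates 1 and 2 and replicates 3 and 4 alone. Il10 stands at 3.25 and the neighbours between -0.86 and 0.12.

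Fcmr, the IgM receptor gene, had the lowest change of the neighbours. It stood at 62.0, 33.3, 33.3 and 32.7 FPKM in IL-10- replicates 1 to 4 and at 33.9, 21.3, 13.9 and 18.8 FPKM in IL-10+ replicates 1 to 4. The groups overlapped only through replicate 1, which had the highest value of each group, and in each number the IL-10+ library was lower, at 0.416 to 0.641 of its IL-10- counterpart. The group means were 22.0 ± 8.52 and 40.3 ± 14.4 FPKM (SD, n = 4), and the log2 change was -0.86 (SE 0.288, limma adjusted p = 0.0707). The gene was called lower with the replicate block (adjusted p = 0.000971), in replicates 3 and 4 alone (adjusted p = 0.0146, where 12.1% of genes were called lower) and without IL-10+ replicate 1 (adjusted p = 0.0210). Leaving out any of the other 7 libraries gave no call, with an adjusted p of up to 0.163. In replicates 1 and 2 alone the gene was not called (adjusted p = 0.278, where 2.82% were called lower). None of these fits on fewer libraries used the block.

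Fcmr belongs to a family of receptors for IgM and polymeric immunoglobulin whose genes lie side by side. Fcamr, the receptor for IgA and IgM, starts at -218.9 kb from Il10 and was 2.49, 2.13, 1.15 and 2.62 FPKM in IL-10- and 0.879, 0.711, 0.326 and 0.636 FPKM in IL-10+ libraries. Its groups did not overlap, and it was called lower (log2 change -0.90, SE 0.182, limma adjusted p = 0.00894). Its call ended in replicates 3 and 4 alone (adjusted p = 0.0846). The antisense gene Gm15848, which overlaps Fcamr, was lower too (0.421 ± 0.203 against 1.80 ± 0.409 FPKM, SD, n = 4, adjusted p = 0.00187), and the 2 cannot be told apart without strand. Pigr, the polymeric immunoglobulin receptor, was under the filter at 0.152 ± 0.103 against 0.392 ± 0.128 FPKM. The ligand's genes went the other way. Ighm, the IgM heavy chain, was 3.74-fold higher and Jchain, which joins IgM pentamers, was 6.88-fold higher in IL-10+ cells. In all, 4 of 5 genes of this list were tested, with 2 called higher and 1 lower, or 2 and 2 with the block. Among all tested genes 10.6% were higher and 9.18% lower, or 20.4% and 33.3% with the block.

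Ikbke, the kinase gene farthest from Il10 among the members, was at 4.76, 4.17, 3.17 and 3.76 FPKM in IL-10- and at 3.09, 2.88, 2.17 and 2.88 FPKM in IL-10+ replicates 1 to 4. The groups did not overlap, by the small margin of 3.17 against 3.09 FPKM. Of all tested genes 25.2% did not overlap, with 12.2% higher and 13.0% lower. The IL-10+ library was at 0.650 to 0.766 of the IL-10- library of its number. Its log2 change was -0.40 (SE 0.120, 95% interval -0.67 to -0.13, limma adjusted p = 0.0483, and 0.00142 with the block). The unblocked call is at the threshold. It held in 1 of 8 fits that left out a library, that without IL-10- replicate 3 (adjusted p = 0.0277), and the other 7 gave 0.0538 to 0.116. It ended in replicates 1 and 2 alone (adjusted p = 0.0666, where 9.76% of genes were called, 6.94% of all tested being higher), in replicates 3 and 4 alone (0.143, where 23.4% were called and 11.3% were higher), without a filter (0.113) and when immunoglobulin and mitochondrial genes were left out of the scaling (0.0691). The antisense gene Gm28913 inside it was at 0.692 ± 0.485 against 1.78 ± 0.811 FPKM (SD, n = 4, adjusted p = 0.0906, and 0.00502 with the block).

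The partner kinase of IKK-epsilon went in the opposite direction. Tbk1, the paralog of Ikbke with overlapping substrates, was at 29.1 ± 2.90 against 22.4 ± 2.25 FPKM (SD, n = 4) and was called higher (log2 change 0.36, limma adjusted p = 0.0320). Its unblocked call held in 2 of 8 fits that left out a library, those without IL-10+ replicate 1 and without IL-10- replicate 4. It ended in replicates 1 and 2 alone (adjusted p = 0.116) and without a filter (0.0597). Under the block Tbk1 was called higher (adjusted p = 0.000499). Ticam1, the adaptor that links Toll-like receptors to these kinases, was called higher at 26.4 ± 1.20 against 17.8 ± 1.17 FPKM (adjusted p = 0.000611). Of 11 tested genes of this module 2 were higher and 1 was lower, with a median log2 change of -0.09. With the block the counts were 2 and 5. Among all tested genes 10.6% were higher and 9.18% lower, or 20.4% and 33.3% with the block.

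Mapkapk2, the nearest neighbour, was the most abundant member in both groups. It stood at 47.5, 52.8, 58.0 and 50.8 FPKM in IL-10- and at 45.7, 43.8, 52.3 and 45.8 FPKM in IL-10+ replicates 1 to 4. The groups overlapped, while the IL-10+ library was the lower one in each number. The log2 change of -0.15 (SE 0.0841, 95% interval -0.34 to 0.04) was not called without the block (limma adjusted p = 0.250) and was called lower with it (adjusted p = 0.0207). It lost the blocked call when immunoglobulin and mitochondrial genes were left out of the scaling (adjusted p = 0.0615).

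Of 14 tested genes of the p38 and MK2 kinases and of AU-rich RNA control, none was called higher and 2 lower, with a median log2 change of -0.10, against 10.6% and 9.18% of all tested genes. With the block 2 were higher and 6 lower, against 20.4% and 33.3%. Mapk11, the p38β gene, was at 6.81 ± 2.93 against 13.7 ± 3.83 FPKM (SD, n = 4, limma adjusted p = 0.0453), and Khsrp, a protein of messenger decay, at 86.9 ± 3.00 against 104.4 ± 6.93 FPKM (adjusted p = 0.0282). Of 8 unblocked fits that left out a library, Mapk11 kept its call in 1, without IL-10+ replicate 1, and Khsrp in 2, without IL-10- replicate 1 or 2. Without the block, neither passed when immunoglobulin and mitochondrial genes were left out of the scaling (adjusted p = 0.0569 and 0.0550). Under the block both were called lower (adjusted p = 0.000398 and 0.000992). Mapk14, the p38α gene, was at 25.9 ± 1.46 against 28.1 ± 1.50 FPKM, Zfp36 at 71.1 ± 19.2 against 67.6 ± 26.0 FPKM, and the paralog Mapkapk3 at 5.78 ± 0.399 against 6.07 ± 0.477 FPKM, and these 3 were not called without the block. With it Mapk14 was called lower (adjusted p = 0.0149). Mapkapk5 was under the filter in both groups (0.641 ± 0.0937 and 0.733 ± 0.236 FPKM).

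Dyrk3, Eif2d and Rassf5 did not pass the test, and their intervals bound the change. Dyrk3 was at 2.33, 2.58, 2.84 and 3.16 FPKM in IL-10- and at 2.51, 3.12, 3.42 and 3.11 FPKM in IL-10+ replicates 1 to 4, higher in 3 of 4 numbers (log2 change 0.12, 95% interval -0.11 to 0.34, limma adjusted p = 0.464). The groups overlapped over most of their range. Its paralog Dyrk2 was called lower (3.71 ± 0.735 against 6.13 ± 1.24 FPKM, SD, n = 4, adjusted p = 0.0202). The unblocked call ended without IL-10+ replicate 2, 3 or 4 (adjusted p = 0.0586, 0.0597 and 0.0511), in replicates 1 and 2 alone (0.140) and without a filter (0.0540). Under the block Dyrk2 was called lower (adjusted p = 0.000137). Dyrk1a (14.2 ± 1.24 against 15.6 ± 1.91 FPKM) and Dyrk1b (1.60 ± 0.754 against 2.105 ± 0.782 FPKM) were not called without the block and were lower with it (adjusted p = 0.0218 and 0.0201), and Dyrk4 was under the filter. Of the 4 tested kinases of this family 1 was lower, or 3 with the block, against 9.18% and 33.3% of all tested genes.

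Eif2d was the member whose libraries differed least. It stood at 9.23, 9.67, 9.79 and 9.67 FPKM in IL-10- and at 9.74, 10.2, 10.4 and 10.2 FPKM in IL-10+ replicates 1 to 4. Each IL-10+ library was above its counterpart, by ratios of 1.05 to 1.06, and the groups overlapped only between 9.74 and 9.79 FPKM. The log2 change was 0.07 (95% interval -0.05 to 0.19, limma adjusted p = 0.386, and 0.0772 with the block). Under the block it was called higher if libraries were scaled by median of ratios (adjusted p = 0.0308) or if immunoglobulin and mitochondrial genes were left out of the scaling (0.0237). Of 11 tested genes for initiation factors related to it, 1 was called higher and none lower, against 10.6% and 9.18% of all tested genes. The block gave 2 and 4, against 20.4% and 33.3%, and the median log2 change was 0.03. The one called higher without the block was Mcts2 (14.3 ± 2.26 against 5.69 ± 0.735 FPKM, SD, n = 4). It is a near-copy of Mcts1 that lies inside the gene H13 on the same strand, so its reads are uncertain. Mcts1 and Denr, whose proteins form a complex that resembles Eif2d, were not called without the block (25.6 ± 3.69 against 27.5 ± 3.51 FPKM and 15.7 ± 1.47 against 17.8 ± 2.17 FPKM). Denr was lower with it (adjusted p = 0.0199).

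Rassf5 was at 25.6, 24.4, 24.0 and 21.6 FPKM in IL-10- and at 22.4, 20.97, 24.6 and 21.4 FPKM in IL-10+ replicates 1 to 4. The groups overlapped, and the pairs of numbers did not share a sign. The log2 change was -0.09 over all libraries (95% interval -0.27 to 0.08, limma adjusted p = 0.449), -0.20 in replicates 1 and 2 and 0.01 in replicates 3 and 4. Among its paralogs, Rassf2 was called lower (14.1 ± 0.647 against 16.9 ± 0.307 FPKM, SD, n = 4, adjusted p = 0.0139, and 0.148 in replicates 1 and 2 alone). Without the block Rassf1, Rassf3 and Rassf4 were not called, at 2.18 ± 0.310 against 2.71 ± 0.231, 8.22 ± 0.624 against 9.74 ± 1.27 and 7.78 ± 1.12 against 7.42 ± 0.923 FPKM, and Rassf6 was under the filter. With the block Rassf1 and Rassf3 were lower (adjusted p = 0.0121 and 0.00698). Rap1a, a small GTPase that Rassf5 binds, was called higher (90.1 ± 6.18 against 67.1 ± 6.83 FPKM, adjusted p = 0.0112). This was 0.000313 with the block and 0.0733 in replicates 1 and 2 alone. Its paralog Rap1b went the other way, at 96.0 ± 4.15 against 109.1 ± 3.51 FPKM. Rap1b was not called without the block (adjusted p = 0.0641) and was lower with it (0.00503). Of the 11 tested genes of this list 1 was higher and 1 lower, and the block gave 2 and 7. Among all tested genes 10.6% were higher and 9.18% lower, or 20.4% and 33.3% with the block.

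**Figure D3:**
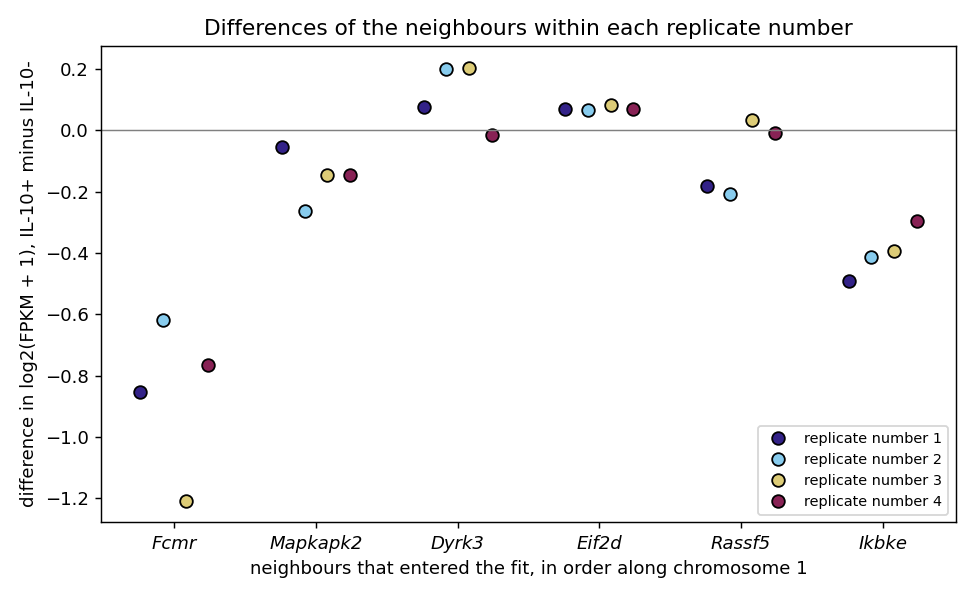
Difference in log2(FPKM + 1), IL-10+ minus IL-10- (y axis), of the 6 tested neighbours within each replicate number (colours), in chromosome order. Fcmr, Mapkapk2 and Ikbke are below 0 and Eif2d above 0 in all 4 numbers, while Dyrk3 and Rassf5 fall on both sides.

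The order of the members by level shows how far Il10 moved against its neighbours. Levels are per length of all annotated exons, which was 1310 bases for Il10, 7374 for Eif2d and 9018 for Ikbke. Exons that these cells do not use would lower a value, so the order depends in part on the annotation. In IL-10- cells the order was Mapkapk2 (52.3 ± 4.42 FPKM), Fcmr (40.3 ± 14.4), Rassf5 (23.9 ± 1.67), Eif2d (9.59 ± 0.246), Ikbke (3.96 ± 0.671), Il10 (3.17 ± 1.48) and Dyrk3 (2.73 ± 0.357, SD, n = 4). The range of Il10 overlapped those of Ikbke and Dyrk3 there, and Mapkapk2 and Fcmr overlapped too. In IL-10+ cells Il10 (36.9 ± 5.32 FPKM) stood second after Mapkapk2 (46.9 ± 3.74), and these 2 overlapped in part. Il10 also overlapped Fcmr, which was the higher of that pair in replicate 1 (33.9 against 32.0 FPKM). Rassf5 (22.4 ± 1.60) and Fcmr (22.0 ± 8.52) followed and overlapped, then Eif2d (10.1 ± 0.284), and last Dyrk3 (3.04 ± 0.384) and Ikbke (2.75 ± 0.403), which overlapped. Il19, Il24 and Il20 came last in both groups.

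A wider look took every gene with a start within 1 Mb of that of Il10. Of the 60 annotated genes besides Il10, 50 were in the table and 22 were tested. Of these, 1 was called higher and 3 lower, which is 18.2%, against 19.7% called in either direction among all tested genes and 20.2% of 659 tested genes on chromosome 1. With the block 3 were higher and 9 lower, or 54.5%, against 53.7% of all genes. The share called around Il10 was thus near that of the genome, among genes that passed the filter. Genes under the filter, such as C4bp of the closing observations, are not in these counts. The one gene called higher without the block was Slc41a1, a magnesium transporter gene that starts 807.6 kb beyond Il10. It was at 24.4, 24.0, 23.2 and 26.2 FPKM in IL-10+ and 9.63, 8.71, 9.37 and 9.14 FPKM in IL-10- libraries, with no overlap (log2 change 1.32, SE 0.0615, limma adjusted p = 1.16e-05). The 3 called lower without the block were Fcamr, Gm15848 and Ikbke. Between Fcmr and Ikbke, across the 414 kb of the members, no tested gene other than Il10 was called higher with or without the block. Only the block together with either of the other scalings called a neighbour, Eif2d, higher.

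**Figure D4:**
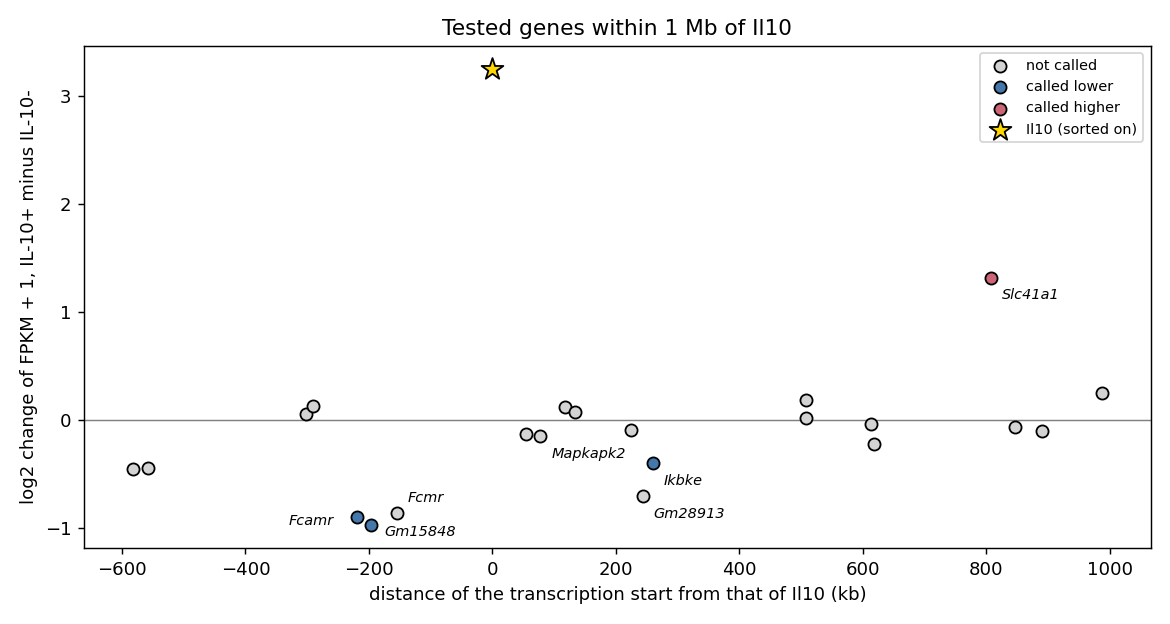
Log2 change of FPKM + 1, IL-10+ minus IL-10- (y axis), of the 22 tested genes within 1 Mb of Il10 against the distance of their start from that of Il10 in kb (x axis), with Il10 as a star. Called genes are coloured. Besides Il10, Slc41a1 at 1.32 is the one gene called higher in this fit, which is without the block.

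The ligand-binding chain Il10ra was at 18.5, 13.9, 10.7 and 15.7 FPKM in IL-10+ and at 35.4, 26.7, 25.1 and 28.3 FPKM in IL-10- replicates 1 to 4. The groups did not overlap, and the gene was called lower (log2 change -0.94, SE 0.165, limma adjusted p = 0.00438, and 0.0575 in replicates 1 and 2 alone). The shared chain Il10rb was at 4.95 ± 0.539 against 3.94 ± 0.657 FPKM (SD, n = 4) and was not called without the block (adjusted p = 0.119) but was higher with it (0.0134). Of 12 tested genes of the list of receptor signalling and its targets, 1 was called higher and 4 lower, with a median log2 change of -0.14, against 10.6% and 9.18% of all tested genes. The 4 were Il10ra, the kinase Jak1 (40.0 ± 2.47 against 60.5 ± 2.73 FPKM), the feedback inhibitor Socs3 (7.04 ± 1.04 against 13.6 ± 1.29 FPKM) and Bcl3 (38.2 ± 2.68 against 50.1 ± 6.44 FPKM). Bcl3 (adjusted p = 0.0303, and 0.253 in replicates 1 and 2 alone) was named to complete the count after its value was seen. The one that was higher, Tyk2, was named in the same way and stood at 16.3 ± 1.13 against 11.3 ± 0.939 FPKM (adjusted p = 0.00238, and 0.0761 in replicates 1 and 2 alone). Stat3 was not called without the block (adjusted p = 0.0576) and was lower with it (0.00634). With the block 4 were higher and 6 lower, against 20.4% and 33.3% of all tested genes. Of the IL-10 family and its receptor chains 10 of 14 genes were in the table and 4 were tested. Without the block Il10, the gene sorted on, was higher and Il10ra lower. With the block 3 were higher, Il10, Il10rb and Il20rb (adjusted p = 0.0150), and 1 was lower. Among all tested genes 10.6% were higher and 9.18% lower, or 20.4% and 33.3% with the block.

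The genes most like Il10 in level over the 8 libraries lay elsewhere in the genome. By Pearson's r of log2(FPKM + 1) these were Unc50 (r = 0.996), Lman1 (0.995), Eaf2 (0.995), Spcs2 (0.995) and Stt3a (0.995), over 8 libraries that share the 2 sorted groups, so the values describe mainly the split between groups. Lman1 carries glycoproteins out of the endoplasmic reticulum, Spcs2 belongs to the signal peptidase and Stt3a to the oligosaccharyltransferase. Lman1 stood at 52.9 ± 4.30 against 21.8 ± 3.16 FPKM (SD, n = 4) and Stt3a at 55.3 ± 3.29 against 28.5 ± 2.61 FPKM. By the same measure the neighbours were at 0.84 for Eif2d, 0.57 for Dyrk3, -0.54 for Mapkapk2, -0.60 for Rassf5, -0.80 for Fcmr and -0.85 for Ikbke.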

How the data were processed

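Bulk RNA-seq of 8 libraries was analysed, 4 of IL-10+ and 4 of IL-10- B cells, grouped by their titles. The authors deposited FPKM values. Per the submitters' processing notes, HISAT2 2.1.0, HTSeq 0.6.0 and the build mm10 were used. No source used here states the annotation release, strand setting or treatment of shared reads. Of the identifiers 26517 were in GENCODE M21 and 72 were not. Reads were recovered from FPKM, gene length and a fitted library total, with 93.4% to 93.6% of values whole within 0.05. Libraries of a group differed beyond sampling noise (chi-square over its degrees of freedom 9.00 to 82.9). Replicates 1 and 2 were at 26.3 in IL-10- and 16.5 in IL-10+, and replicates 3 and 4 at 9.50 and 9.00. The other pairs of a group were at 36.7 to 82.9, and the labels give no reason for these 2 sets.

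The test was limma 3.58.1 (R 4.3.3) with a variance trend on log2(FPKM + 1), which understates the change of low genes. It covered 11329 genes that reached 1 FPKM in 4 or more libraries. P-values were adjusted over all of them by Benjamini-Hochberg, and genes under 0.05 were called. The fit without the block was tested on simulated data in which libraries varied independently, so that test does not cover the pairing described next. Same-numbered libraries deviated together from their group means (r = 0.71, 0.58, 0.62 and 0.70 across genes), so the numbers were taken to pair the libraries, a choice that rests on the values since the labels are silent. Alternatives were other pseudocounts, filters and scalings, the replicate block, pairs of numbers alone, and each library left out over the same genes. The fits on pairs of numbers and with a library left out did not use the block.

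The members and gene lists were chosen with earlier results of these data known. Named genes were the members, called genes within 1 Mb, up to 3 called genes of largest change per list, paralogs, and the 5 genes of highest correlation with Il10 among those averaging 5 FPKM or more in either group, leaving out predicted genes and immunoglobulin segments. Other names were chosen after their values were seen: Zfp36, Mapk14, Mcts1, Denr, Il10rb, Il20rb, Stat3, Tyk2, Bcl3, Pigr, Rap1b, Gm28913 and the genes of the closing observations. The ATTTA count, in the transcript of the longest coding sequence, was also added later. One marker gene is not reported here.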

Additional observations from a re-analysis of the deposited data

Results flagged for a closer look

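Of 80 sets of 4 libraries, one for each named gene and group, 5 held a library far from the other 3 by Dixon's criterion, which chance meets in about 1 of 20 groups. Fcmr was at 62.0 FPKM in IL-10- replicate 1 against 32.7 to 33.3 FPKM in the other 3. The same number was also the highest of the IL-10+ group, and without IL-10- replicate 1 the log2 change of Fcmr was -0.64 (limma adjusted p = 0.121, no block). Il20 was at 0.0308 FPKM, or 1 read, in IL-10+ replicate 1 and at 0 in the other 3. Lman1 was at 46.5 FPKM in IL-10+ replicate 1 against 54.7 to 55.7 FPKM. Stt3a was at 50.4 FPKM in the same library against 56.5 to 57.5 FPKM. Spcs2 was at 101.8 FPKM in IL-10+ replicate 2 against 95.1 to 95.4 FPKM.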

How the results depend on the processing

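Over all 11329 genes, 2236 were called, and leaving out 1 library gave 1621 to 2055. With the replicate block 6083 were called, with the block and median-of-ratios scaling 5719, with the block and scaling that omits immunoglobulin and mitochondrial genes 5675, and in replicates 1 and 2 alone 1106. Of the neighbours, the count higher was 1 under each of those scalings with the block, and 0 to 0 with a library left out. The count lower was 0 without a filter, 0 at 5 FPKM or more, 0 when the scaling omitted those genes, 0 in replicates 1 and 2, 3 with the block, 3 and 2 with the block and the 2 scalings, and 0 to 1 with a library left out. At 5 FPKM or more Ikbke was not tested. Within 1 Mb the count was 1 at 5 FPKM or more, 12 with the block, 13 and 12 with the block and the scalings, and 3 to 5 with a library left out.

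For the gene lists, the counts with the block, and then with the block and the 2 scalings, were 4, 4 and 4 for the IL-10 family, 10, 10 and 10 for receptor signalling, 8, 7 and 6 for p38 and MK2, 7, 7 and 7 for IKK-epsilon, 9, 8 and 8 for RASSF5, 3, 3 and 2 for DYRK, and 6, 7 and 6 for EIF2D. With the block alone these lists held 4, 12, 14, 11, 11, 4 and 11 tested genes in that order, and 53.7% of all tested genes were called. Replicates 1 and 2 alone gave 1, 2, 1, 1, 0 and 0 for the first 6 lists, against 9.76% of all tested genes. Replicates 3 and 4 alone gave 4 for p38 and MK2 and 2 for EIF2D, against 23.4% of all tested genes. Without the block, p38 and MK2 had 1 under median-of-ratios scaling and 0 under the other, IKK-epsilon 1 without a filter, and DYRK 0 without a filter and 0 at 5 FPKM or more. With a library left out the ranges were 2 to 3, 4 to 6, 0 to 1, 1 to 2, 2 to 4, 0 to 1 and 1 to 1 in the same order, and 3 to 4 for the IgM receptors.

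The log2 change of Rassf5 changed sign to 0.012 in replicates 3 and 4 alone. With a library left out Rassf4 ranged from -0.011 to 0.14 on the log2 scale, and the difference of Il19 from -0.0116 to 0.0386 FPKM, while that of Il24 was -0.0609 to -0.0346 FPKM. The cause was not tested. Il19, Il20 and Il24 had too few reads for a change to be detectable.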

Other observations

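Some genes of the region were too low for the fit and yet separated the groups, and they were picked after their values were seen. The share of genes under the filter that separate the groups over the whole table is not given. C4bp, which encodes a complement regulator, starts at -358.2 kb from Il10. It stood at 0.925 ± 0.0734 FPKM in the IL-10+ group (SD, n = 4), against 0.139 ± 0.0758 FPKM in the other. Pm20d1, 777.5 kb beyond Il10, was at 0.145 ± 0.0266 against 0.00878 ± 0.0103 FPKM. No test is given for either.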
